A study of Mus musculus with 6 samples.

Results

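The transcript levels of 9 transcription factors of adipocyte differentiation, *Cebpa*, *Cebpb*, *Cebpd*, *Klf4*, *Klf5*, *Klf9*, *Klf15*, *Gata2*, and *Gata3*, were examined in IWAT (inguinal white adipose tissue, the subcutaneous fat of the groin). They were taken by gene symbol from a table of 55491 genes, where each symbol had 1 entry. IWAT was collected from 3 *Ebf2*+/+ and 3 *Ebf2* E165X/+ mice, and RNA was sequenced as 1 library per mouse. All 6 mice were 4-week-old males of the C57BL/6J strain kept on regular chow and otherwise untreated. *Ebf2* E165X/+ mice carry on 1 allele a nonsense codon introduced with CRISPR/Cas9, and the other allele is intact. The change is in the germ line, so it is present in every cell of the mouse and is not limited to adipocytes or their progenitors. The libraries held 106820505 to 135039488 counts each, and levels are given as CPM, counts scaled to a library size that was adjusted with edgeR's TMM factors.

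Adipocyte differentiation is known to run as a cascade of transcription factors. C/EBPβ and C/EBPδ are induced early by hormonal signals, and they activate *Cebpa* and *Pparg*, which maintain each other and switch on the genes of the mature adipocyte. KLF4, KLF5, KLF9, and KLF15 act at successive steps of this cascade as activators, whereas GATA2 and GATA3 are made in preadipocytes and restrain the step into adipocytes. EBF2, the factor carrying the variant, marks adipocyte progenitors and is required for the brown and beige fat program.

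*Ebf2* itself was measured at 38.3, 41.3, and 37.2 CPM in the *Ebf2*+/+ mice and at 22.8, 22.9, and 21.1 CPM in the *Ebf2* E165X/+ mice. The libraries thus separated by genotype as labelled, with a log2 fold change of −0.81 (SE 0.076, n = 3 per genotype) and an adjusted *P* of 0.0596 by edgeR's quasi-likelihood test. DESeq2 gave an adjusted *P* of 1.23e-13 for the same gene.

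None of the 9 factors passed the thresholds for a difference between the genotypes, which were an adjusted *P* under 0.05 together with more than a 1.5-fold change. In edgeR, 0 of 9 were called, where 0.00918% of all 32664 genes tested were called, and 0 of 9 had an unadjusted *P* under 0.05, where 4.77% of all genes did. In DESeq2, 0 of 9 were called, where 0.61% of all genes with an adjusted *P* were called, and *Cebpa* was the only factor with an unadjusted *P* under 0.05 (0.0418, adjusted *P* = 0.561), where 4.87% of all genes had one. *Cebpa* was also the only factor whose 3 *Ebf2* E165X/+ mice all lay outside the range of the 3 *Ebf2*+/+ mice, which is 1 of 9 factors against 13.4% of the 18905 well-counted genes, those with 10 or more counts in each library. Of the 9 factors, 5 had a higher and 4 a lower mean estimate in *Ebf2* E165X/+ mice, and their median log2 fold change was 0.04, against 0.01 over all genes tested.

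The precision of these comparisons differed between factors. For 6 of the 9 factors, *Cebpa*, *Klf4*, *Klf9*, *Klf15*, *Gata2*, and *Gata3*, the 95% interval of the fold change lay within 1.5-fold in both directions, as it did for 58.0% of the well-counted genes. For *Cebpb*, *Cebpd*, and *Klf5*, the interval reached past 1.5-fold, so that these data leave room for a difference of that size. These intervals are not adjusted for the number of genes.

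**Figure D1:**
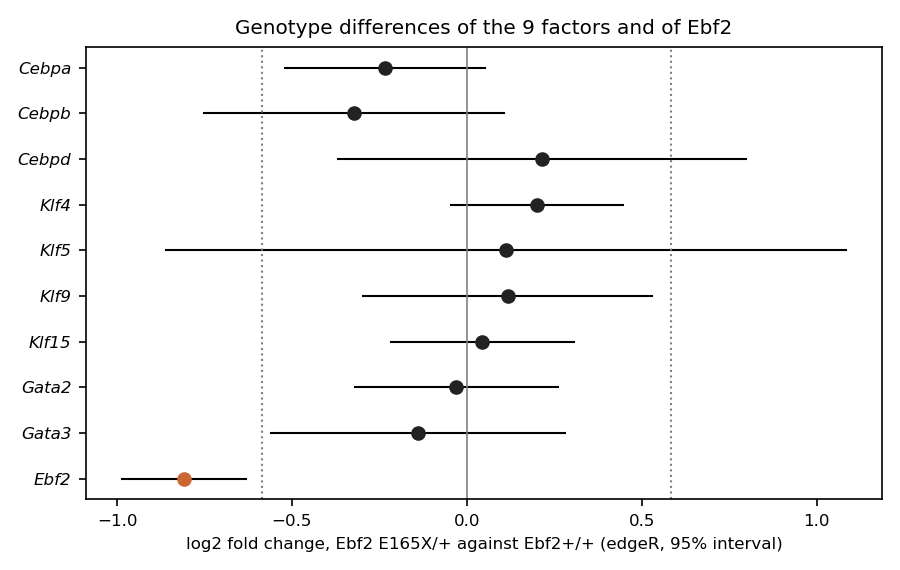
Log2 fold change (x axis) of each factor and of *Ebf2* in *Ebf2* E165X/+ against *Ebf2*+/+ mice, with n = 3 per genotype; points are edgeR estimates, bars are unadjusted 95% intervals, and dotted lines mark a 1.5-fold change in either direction. All 9 intervals of the factors cross 0, the widest being that of *Klf5* from −0.86 to 1.08, and that of *Ebf2* does not.

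Of the C/EBP members, *Cebpa* encodes C/EBPα, which sustains the mature adipocyte and its insulin response. In GRCm38 it lies at chr7:35119293-35121928, *Cebpb* at chr2:167688915-167690418, and *Cebpd* at chr16:15887286-15891031, all on the plus strand. *Cebpa* was measured at 479, 445, and 450 CPM in *Ebf2*+/+ mice and at 402, 430, and 336 CPM in *Ebf2* E165X/+ mice. The genotypes did not overlap, although the closest mice of either genotype, at 445 and 430 CPM, were nearer to each other than to the lowest mouse of the series. The mean was 458 ± 18.1 CPM (SD, n = 3) against 389 ± 48.6 CPM (SD, n = 3), and the edgeR log2 fold change was −0.23 (SE 0.12, 95% interval −0.52 to 0.05, adjusted *P* = 0.783). The separation depended on the scaling of the libraries: with the library size alone, without TMM factors, the *Cebpa* values of the genotypes overlapped. Without the third *Ebf2* E165X/+ mouse, the lowest of the 6, the log2 fold change of *Cebpa* was −0.14 (SE 0.11, unadjusted *P* = 0.247 by edgeR, n = 3 and 2).

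*Cebpb*, which encodes an early activator of *Cebpa* and *Pparg*, was measured at 32.7, 34.4, and 48.3 CPM in *Ebf2*+/+ mice and at 24.6, 32.2, and 35.5 CPM in *Ebf2* E165X/+ mice. The first *Ebf2* E165X/+ mouse was the lowest and the third *Ebf2*+/+ mouse the highest, and the other 4 mice lay between 32.2 and 35.5 CPM irrespective of genotype. The log2 fold change was −0.32 (SE 0.18, 95% interval −0.75 to 0.11, adjusted *P* = 0.783 by edgeR). *Cebpd*, which encodes the partner of C/EBPβ in the early phase, was measured at 13.1, 12.7, and 21.9 CPM in *Ebf2*+/+ mice and at 16.96, 14.9, and 23.4 CPM in *Ebf2* E165X/+ mice. Its 2 highest values came from the third mouse of either genotype, so the spread within each genotype exceeded the distance between the means, 15.9 ± 5.20 and 18.4 ± 4.397 CPM (SD, n = 3). The log2 fold change of *Cebpd* was 0.22 (SE 0.25, 95% interval −0.37 to 0.80, adjusted *P* = 0.812 by edgeR), and it was 0.0071 to 0.50 when 1 mouse was left out at a time, with the highest value reached without the third *Ebf2*+/+ mouse.

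Both early factors lie in regions where a gene on the opposite strand overlaps them in the annotation, *Tmem189* for *Cebpb* and *Spidr* for *Cebpd*, and *Cebpa* is overlapped by *Gm45091*, which stayed under 1 CPM in every mouse. The sources used here do not state whether strand was used in counting, and without it the reads of overlapping genes cannot be told apart. *Tmem189* had 57.3 to 62.3 CPM in *Ebf2*+/+ and 55.2 to 58.5 CPM in *Ebf2* E165X/+ mice, and *Spidr* had 13.4 to 14.98 and 11.9 to 14.4 CPM. Neither overlapping gene was as variable as the factor it overlaps, the highest library exceeding the lowest by 1.13-fold for *Tmem189* and by 1.25-fold for *Spidr*, against 1.97-fold for *Cebpb* and 1.84-fold for *Cebpd*. The part of overlapping reads in the levels and the spread of these factors was not tested.

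Of the KLF members, *Klf4* encodes an activator of *Cebpb* at the onset of differentiation. It lies on the minus strand at chr4:55527143-55532466, and *Klf5* (chr14:99298691-99315036), *Klf9* (chr19:23141226-23168134), and *Klf15* (chr6:90462576-90475238) lie on the plus strand. *Klf4* was measured at 53.6, 41.9, and 50.7 CPM in *Ebf2*+/+ mice and at 55.4, 52.3, and 60.2 CPM in *Ebf2* E165X/+ mice. The genotypes overlapped only through the first *Ebf2*+/+ mouse, which lay above 1 of the 3 *Ebf2* E165X/+ mice. The log2 fold change was 0.20 (SE 0.11, 95% interval −0.05 to 0.45, adjusted *P* = 0.783 by edgeR), and with the library size alone the genotypes did not overlap and the unadjusted *P* was 0.0376.

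*Klf5*, which encodes an activator of the *Pparg* promoter downstream of C/EBPβ and C/EBPδ, was the scarcest of the 9. It was measured at 3.06, 1.86, and 2.23 CPM in *Ebf2*+/+ mice and at 2.005, 1.39, and 4.33 CPM in *Ebf2* E165X/+ mice, from 174 to 554 counts per library. The third *Ebf2* E165X/+ mouse was the highest and the second the lowest of the 6. The log2 fold change was 0.11 (SE 0.42, 95% interval −0.86 to 1.08, adjusted *P* = 0.957 by edgeR), and it was −0.49 once the third *Ebf2* E165X/+ mouse was left out. *Klf5* lies on the same chromosome as *Ebf2* (chr14:67233292-67430918).

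*Klf9*, a glucocorticoid-responsive gene whose product acts on *Pparg* in the middle of differentiation, was measured at 98.9, 112, and 122 CPM in *Ebf2*+/+ mice and at 116, 92.4, and 152 CPM in *Ebf2* E165X/+ mice. The lowest and the highest mouse were both *Ebf2* E165X/+. The log2 fold change was 0.12 (SE 0.18, 95% interval −0.30 to 0.53, adjusted *P* = 0.870 by edgeR), and it was −0.09 without the third *Ebf2* E165X/+ mouse. *Klf15*, which encodes a late activator of *Slc2a4* and of amino acid catabolism, was measured at 39.5, 34.4, and 33.1 CPM in *Ebf2*+/+ mice and at 41.5, 32.4, and 36.5 CPM in *Ebf2* E165X/+ mice. The 2 genotypes covered nearly the same range, and the log2 fold change was 0.04 (SE 0.11, 95% interval −0.22 to 0.31, adjusted *P* = 0.927 by edgeR).

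The GATA members restrain adipogenesis through *Pparg* and by binding C/EBP proteins, and they lie at chr6:88193891-88207032 on the plus strand (*Gata2*) and chr2:9857078-9890034 on the minus strand (*Gata3*). *Gata2* was measured at 8.40, 9.47, and 8.11 CPM in *Ebf2*+/+ mice and at 9.10, 8.65, and 7.68 CPM in *Ebf2* E165X/+ mice. It was the least variable of the 9 factors within genotypes, and the log2 fold change was −0.03 (SE 0.12, 95% interval −0.32 to 0.26, adjusted *P* = 0.961 by edgeR). *Gata3* was measured at 5.69, 5.40, and 6.50 CPM in *Ebf2*+/+ mice and at 6.54, 4.98, and 4.44 CPM in *Ebf2* E165X/+ mice. The first *Ebf2* E165X/+ mouse was the highest of the 6 and the other two the lowest, and the log2 fold change was −0.14 (SE 0.18, 95% interval −0.56 to 0.28, adjusted *P* = 0.835 by edgeR).

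**Figure D2:**
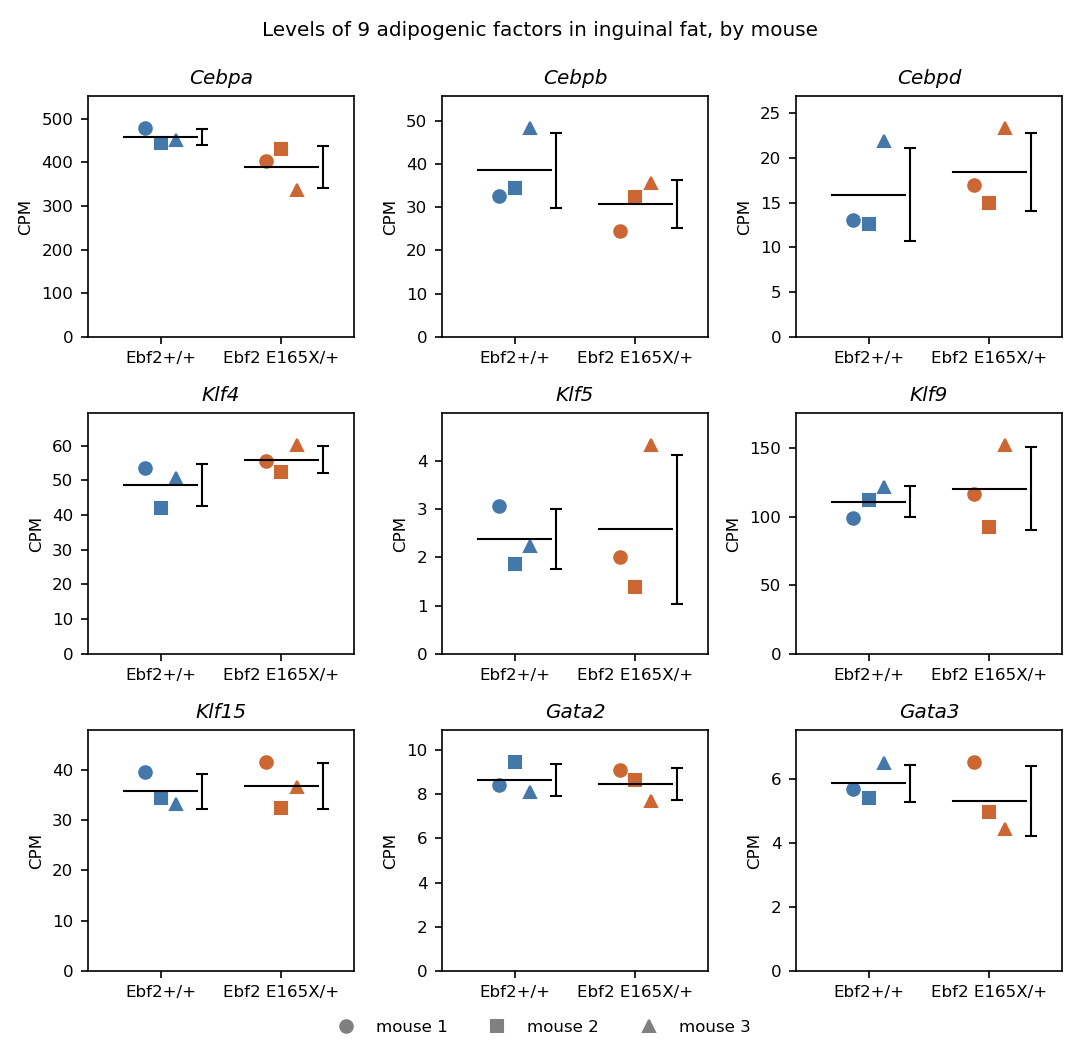
CPM (y axis, from 0) of each factor in the 3 *Ebf2*+/+ (blue) and the 3 *Ebf2* E165X/+ mice (orange); symbols mark the mouse number within a genotype, horizontal lines the mean, and bars the SD. The genotypes are separate for *Cebpa* alone, and the third mouse of either genotype is highest for *Cebpd*.

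The factors also differed in how much they varied between mice of 1 genotype. The pooled SD of log2 CPM within genotypes lay at percentile 94.5 of the 18905 well-counted genes for *Klf5* and at 84.9 for *Cebpd*, followed by *Cebpb* at 74.1, *Klf9* at 72.2, and *Gata3* at 63.1. It lay below the median gene for *Klf15* (47.0), *Klf4* (43.9), *Cebpa* (39.6), and *Gata2* (33.4). The early factors were thus not alike, *Klf4* being less variable than *Cebpb* and *Cebpd*. Some hormone and stress response genes, singled out after their values were seen, had their 2 highest values in the same mice as *Cebpd*, the third of either genotype. They were *Nr4a1*, at 48.2 and 77.0 CPM against 12.3 to 27.6 CPM in the other 4 mice, *Errfi1*, at 103 and 102 CPM against 41.5 to 60.0, and *Jun*, at 62.8 and 66.5 CPM against 36.9 to 42.2. The clock genes *Nr1d1*, at 89.0 and 86.9 CPM against 45.8 to 56.0, and *Nr1d2*, at 76.0 and 98.8 CPM against 43.5 to 59.8, had the same pattern. The clock gene *Per1* did not, its first *Ebf2* E165X/+ mouse, at 51.9 CPM, lying above the third *Ebf2*+/+ mouse, at 49.7 CPM. The part of these genes in the spread of *Cebpd* was not tested.

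Levels were set side by side per kb of exon, with lengths from the GENCODE M21 annotation. *Cebpa* was the most abundant factor, at 161 ± 18.9 CPM per kb (SD, n = 6), which put it at percentile 98.6 of the 14957 genes with a mean of at least 1 CPM and a length. *Klf9* (24.0 ± 4.37 CPM per kb), *Cebpb* (23.0 ± 5.14), and *Klf4* (17.2 ± 1.99) followed, and neighbours among these did not differ beyond their spread. *Klf15* stood at 13.0 ± 1.32 and *Cebpd* at 4.57 ± 1.21 CPM per kb, each apart from its neighbours. The restraining factors *Gata2* (1.59 ± 0.121) and *Gata3* (1.41 ± 0.210) did not differ from each other beyond their spread, and *Klf5*, at 0.477 ± 0.203 CPM per kb, was at percentile 5.62. The kit is described in 2 ways in the sources, and if only the 3′ ends of transcripts were sequenced, counts do not scale with length. By CPM alone the order was *Cebpa*, *Klf9*, *Klf4*, *Klf15*, *Cebpb*, *Cebpd*, *Gata2*, *Gata3*, *Klf5*, so that only *Klf4*, *Klf15*, and *Cebpb* had another place than per kb.

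**Figure D3:**
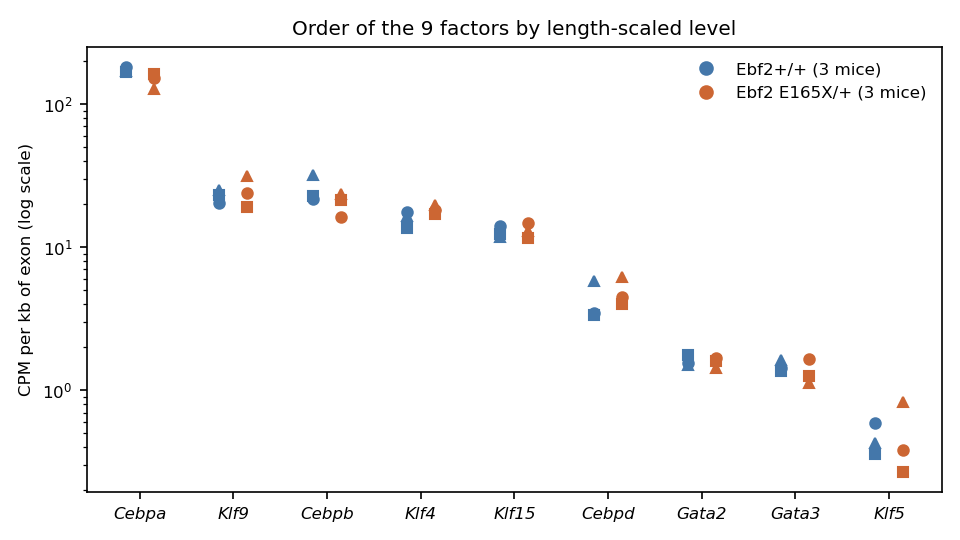
CPM per kb of exon (y axis, log scale) of the 9 factors in order of their mean over the 6 mice, blue for *Ebf2*+/+ and orange for *Ebf2* E165X/+, with the symbols of the mouse numbers as in the plot of CPM by mouse. *Cebpa* stands above all other factors in every mouse, and *Klf5* below all others.

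The remaining genes of the 3 families were described in the same way. Of the other C/EBP genes, 0 of 3 had an unadjusted *P* under 0.05. *Cebpg*, which encodes a partner of other C/EBP proteins without an activation domain of its own, had 99.92, 108.8, and 109.4 CPM against 109.1, 110.1, and 110.1 CPM (log2 fold change 0.05, SE 0.071). *Ddit3*, the stress-induced CHOP, had 8.92, 10.6, and 9.42 CPM against 9.45, 10.8, and 10.4 CPM (log2 fold change 0.08, SE 0.12). *Cebpg* had the smallest SE of the C/EBP genes, and its genotypes overlapped.

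Of the other KLF genes, 12 of 13 had a higher mean estimate in *Ebf2* E165X/+ mice, with a median log2 fold change of 0.14, and 1 of 13, *Klf1*, had an unadjusted *P* under 0.05, where 1.68% of all genes did in that direction. None was called in edgeR or DESeq2. *Klf12*, a repressor of the family, had 3.56, 3.41, and 3.20 CPM in *Ebf2*+/+ and 4.28, 3.595, and 6.53 CPM in *Ebf2* E165X/+ mice (log2 fold change 0.50, SE 0.23, adjusted *P* = 0.783 by edgeR). When 1 mouse was left out at a time, the log2 fold change of *Klf12* was 0.22 to 0.67. *Klf8* had 2.51, 2.64, and 2.74 CPM against 3.08, 3.11, and 3.37 CPM (log2 fold change 0.28, SE 0.15, adjusted *P* = 0.783 by edgeR). The genotypes did not overlap for 4 of the 12 well-counted ones, all higher in *Ebf2* E165X/+ mice, where 6.66% of the well-counted genes were separate in that direction.

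The red blood cell factors *Klf1* and *Gata1* were both scarce, under 2 CPM in every mouse. *Klf1*, named here after its values were seen, had 0.258, 0.332, and 0.436 CPM in *Ebf2*+/+ and 1.25, 0.705, and 0.625 CPM in *Ebf2* E165X/+ mice (log2 fold change 1.33, SE 0.35, adjusted *P* = 0.783 by edgeR). *Gata1*, which also serves mast cells, had 0.708, 0.560, and 0.839 CPM against 1.74, 1.19, and 0.976 CPM (log2 fold change 0.89, SE 0.29, adjusted *P* = 0.783 by edgeR) and was the only 1 of 6 other GATA genes and GATA cofactors with an unadjusted *P* under 0.05, against 1.68% of all genes in that direction. The cofactor gene *Zfpm2* had 8.22, 8.27, and 7.47 CPM against 8.14, 7.09, and 7.11 CPM (log2 fold change −0.10, SE 0.12).

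Markers of red blood cells and mast cells were read beside these 2 genes. The summed level of 5 erythroid genes, of which *Klf1* is 1, was 64.9, 46.9, and 71.7 CPM in *Ebf2*+/+ and 125, 67.1, and 48.7 CPM in *Ebf2* E165X/+ mice (two-sided exact permutation test, *P* = 0.6; the smallest *P* that 3 against 3 mice allow is 0.1). *Alas2* was the most abundant of them, and *Slc4a1*, at 35.01 CPM, was highest in the first *Ebf2* E165X/+ mouse, as were *Klf1* and *Gata1*. The 7 mast cell markers summed to 81.1, 69.9, and 87.3 CPM against 104, 96.9, and 106 CPM without overlap (*P* = 0.1, exact permutation test), with *Kit* the most abundant in every *Ebf2*+/+ mouse and *Mcpt4* in every *Ebf2* E165X/+ mouse. Of these 7 markers, 6 had a higher mean estimate in *Ebf2* E165X/+ mice and 1, *Kit*, a lower one (log2 fold change −0.07, SE 0.10). The protease genes *Mcpt4* (log2 fold change 0.60, SE 0.087, adjusted *P* = 0.229 by edgeR and 9.46e-06 by DESeq2) and *Cpa3* (0.51, SE 0.14, adjusted *P* = 0.783 by edgeR) were 2 of the 4 mast cell markers with an unadjusted *P* under 0.05, all 4 higher in *Ebf2* E165X/+ mice, against 1.68% of all genes in that direction. The part of these cells in the values of *Klf1*, *Gata1*, and *Gata2* was not tested. *Gata2*, which mast cells also express, had an interval from a fold change of 0.800 to 1.20.

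Among 16 other factors that promote adipogenesis, 13 had a lower mean estimate in *Ebf2* E165X/+ mice (median log2 fold change −0.12), 2 of them with an unadjusted *P* under 0.05, where 3.09% of all genes had such a *P* in that direction, and 0 were called in edgeR or DESeq2. *Mlxipl*, which encodes the carbohydrate-responsive factor ChREBP, had 149, 88.4, and 123 CPM in *Ebf2*+/+ and 53.4, 84.3, and 82.5 CPM in *Ebf2* E165X/+ mice (log2 fold change −0.71, SE 0.23, adjusted *P* = 0.783 by edgeR). *Srebf1*, which encodes the insulin-responsive activator of fatty acid synthesis, had 423, 278, and 320 CPM against 270, 276, and 197 CPM (log2 fold change −0.46, SE 0.19, adjusted *P* = 0.783 by edgeR). For both genes the second *Ebf2*+/+ mouse lay just above the highest *Ebf2* E165X/+ mouse, so the groups were separate by a narrow margin. Among 14 factors that restrain adipogenesis, 9 had a lower mean estimate (median −0.03) and 1 an unadjusted *P* under 0.05, *Dlk1*, the preadipocyte gene also called *Pref-1*. *Dlk1* had 2.75, 2.47, and 2.31 CPM against 1.09, 0.921, and 1.93 CPM (log2 fold change −0.93, SE 0.30, adjusted *P* = 0.783 by edgeR), and *Sox9*, at 0.825 to 2.11 CPM, had a log2 fold change of −0.56 (SE 0.29).

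Genes known as targets of these factors were read next. Of 15 adipocyte genes known as targets of C/EBPs or PPARγ, 15 had a lower mean estimate, where 8290 of the 18905 well-counted genes did. The median log2 fold change of the 15 was −0.28, and 3 had an unadjusted *P* under 0.05, against 3.09% of all genes in that direction. The median was −0.15 without the third *Ebf2* E165X/+ mouse. None passed the adjusted threshold in edgeR, and *Scd1* and *Agpat2* did in DESeq2, where 1.18% of all genes did at any fold change. *Agpat2*, which encodes an acyltransferase of triglyceride synthesis, had 676, 335, and 455 CPM in *Ebf2*+/+ and 254, 318, and 245 CPM in *Ebf2* E165X/+ mice (log2 fold change −0.84, SE 0.25, adjusted *P* = 0.783 by edgeR and 0.0275 by DESeq2). *Scd1*, which encodes a fatty acid desaturase, had a log2 fold change of −0.79 (SE 0.29, adjusted *P* = 0.783 by edgeR and 0.000489 by DESeq2), and *Dgat2*, which encodes the last enzyme of triglyceride synthesis, of −0.81 (SE 0.29, adjusted *P* = 0.783 by edgeR and 0.105 by DESeq2). Without 1 mouse, the log2 fold change was −1.07 to −0.55 for *Agpat2*, −0.93 to −0.61 for *Scd1*, and −1.04 to −0.47 for *Dgat2*. The 3 genes serve lipid synthesis, and the remaining 12 had log2 fold changes nearer to 0. Among these, *Insr*, *Pck1*, and *Cfd* were at −0.0021, −0.02, and −0.08. Their signs turned when 1 mouse was left out at a time, as did that of *Cidec*, at −0.15.

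Among 10 genes known as targets of KLF15, mainly of amino acid use and gluconeogenesis, 8 had a lower mean estimate (median log2 fold change −0.36). *Klf15* itself had a fold change of 1.03 with an interval of 0.860 to 1.24, and its part in the levels of these genes was not tested. In edgeR 4 of the 10 were lower and 1 was higher with an unadjusted *P* under 0.05, where 3.09% and 1.68% of all genes were, and 0 passed the adjusted threshold. *Prodh*, which encodes the first enzyme of proline breakdown, had 19.6, 19.1, and 20.5 CPM in *Ebf2*+/+ and 11.3, 14.4, and 12.6 CPM in *Ebf2* E165X/+ mice (log2 fold change −0.63, SE 0.11, adjusted *P* = 0.387 by edgeR and 0.000132 by DESeq2). *Bckdha*, which encodes a subunit of the dehydrogenase complex of branched-chain amino acid breakdown, had 146, 142, and 130 CPM against 106, 104, and 92.5 CPM (log2 fold change −0.47, SE 0.088, adjusted *P* = 0.452 by edgeR and 0.000853 by DESeq2). For both genes the gap between the genotypes was wider than the spread within *Ebf2*+/+ mice or within *Ebf2* E165X/+ mice, and the unadjusted *P* stayed between 0.000412 and 0.00395 when any 1 mouse was left out.

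*Alas1*, which encodes the first enzyme of heme synthesis, had a log2 fold change of −0.40 (SE 0.084, adjusted *P* = 0.584 by edgeR and 0.00492 by DESeq2). *Bckdhb*, which encodes the partner subunit of *Bckdha*, had one of −0.32 (SE 0.088, adjusted *P* = 0.783 by edgeR and 0.164 by DESeq2). Of the 9 well-counted genes of the list, the genotypes did not overlap for 5, all lower in *Ebf2* E165X/+ mice, against 6.78% of the well-counted genes; they were *Prodh*, *Bckdha*, *Bckdhb*, *Alas1*, and *Bcat2*, which encodes the aminotransferase of branched-chain amino acids. *Tat*, the gene that was higher, was separate as well but too scarce to be well-counted, at most 0.160 CPM in any mouse, and *Slc2a4* and *Pck1* are on both lists of targets. *Slc2a4*, the insulin-responsive glucose transporter, had a log2 fold change of −0.45 (SE 0.22) and *Pck1* of −0.02 (SE 0.28).

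**Figure D4:**
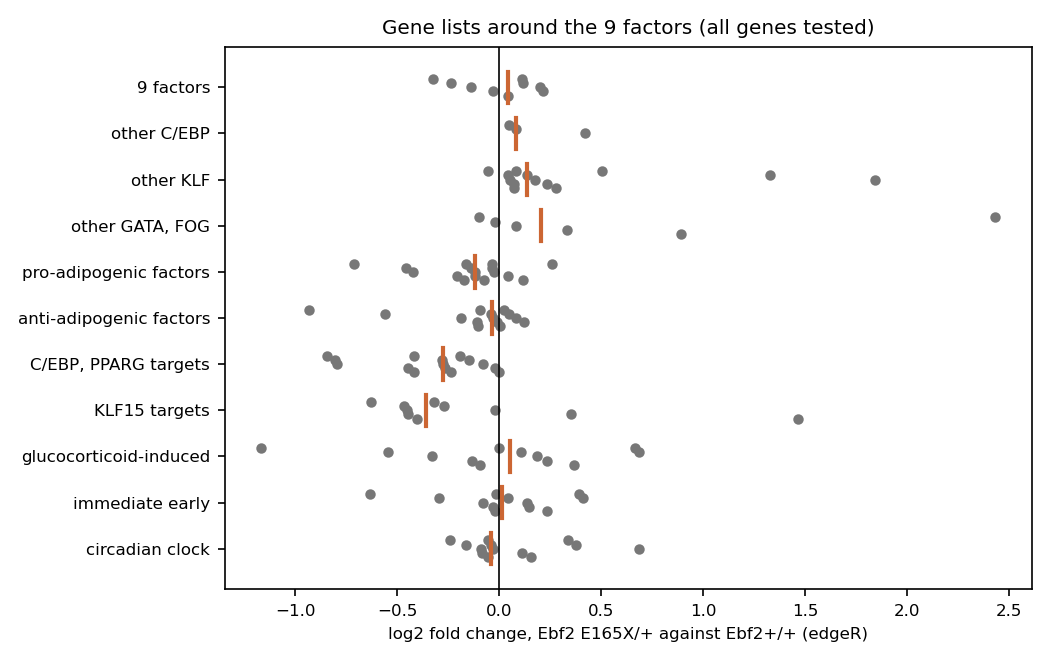
Log2 fold change (x axis) in *Ebf2* E165X/+ against *Ebf2*+/+ mice of each gene tested in the lists around the 9 factors (y axis); each point is 1 gene, points are offset vertically for legibility, and the orange line is the median of the list. All 15 C/EBP and PPARγ targets are below 0, the nearest being *Insr* at −0.0021, and the 9 factors scatter around 0 with a median of 0.04.

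The signals that are known to induce *Cebpb*, *Cebpd*, *Klf9*, and *Klf15* were read through 3 lists of responsive genes. Of 12 glucocorticoid-induced genes, 6 had a higher and 6 a lower mean estimate (median log2 fold change 0.05), with 1 higher and 2 lower at an unadjusted *P* under 0.05, where 1.68% of all genes were higher and 3.09% lower. *Mt1*, a metallothionein gene, had 26.4, 27.0, and 25.9 CPM in *Ebf2*+/+ and 15.8, 17.5, and 21.1 CPM in *Ebf2* E165X/+ mice (log2 fold change −0.54, SE 0.11, adjusted *P* = 0.584 by edgeR and 0.00578 by DESeq2), and *Pdk4*, a gene of the fasting response, had 134, 323, and 486 CPM against 98.7, 98.4, and 223 CPM. *Per1*, a clock gene also induced by glucocorticoids, had 27.8, 25.5, and 49.7 CPM against 51.9, 46.1, and 67.4 CPM (log2 fold change 0.68, SE 0.26, adjusted *P* = 0.783 by edgeR). The list thus held both signs, *Per1* being higher and *Mt1* and *Pdk4* lower by their estimates.

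The same shares of all genes apply to the next lists. Of 12 immediate early genes, 6 were higher and 6 lower by their mean estimate (median 0.01), and *Egr1* was the only one with an unadjusted *P* under 0.05 (log2 fold change −0.64, SE 0.24, adjusted *P* = 0.783 by edgeR), followed by *Atf3* at 0.41 (SE 0.40, and −0.13 to 0.72 when 1 mouse was left out at a time). Of 13 circadian clock genes, 5 were higher and 8 lower (median −0.04), *Per1* alone had an unadjusted *P* under 0.05, and *Per2* had a log2 fold change of 0.37 (SE 0.21). The hour of collection was not given for each mouse in the sources used here.

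The cell types of the tissue were read beside the factors, since in bulk RNA fewer cells of a type and less RNA per cell cannot be told apart. Defining adipocyte markers of the labelled tissue were abundant: 8 of 8 were detected in every library, *Lpl* had 4046 to 6894 CPM and was the most abundant in 5 of 6 libraries (*Fabp4* in the second *Ebf2*+/+ mouse), and *Adipoq* had 820 to 1303 CPM. The summed adipocyte markers were 21690, 22901, and 19617 CPM in *Ebf2*+/+ and 21025, 19509, and 13391 CPM in *Ebf2* E165X/+ mice (two-sided exact permutation test, *P* = 0.2). The third *Ebf2* E165X/+ mouse, which was lowest for *Cebpa*, was also lowest for this sum. Of the 8 markers, 7 of which are also among the 15 C/EBP and PPARγ targets, 8 had a lower mean estimate (median log2 fold change −0.26, and −0.086 without the third *Ebf2* E165X/+ mouse) and 0 an unadjusted *P* under 0.05, with *Adipoq* at −0.28 (SE 0.17) and *Fabp4* at −0.42 (SE 0.26).

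Expressed as a percentage of the summed adipocyte markers in the same library, *Cebpa* stood at 2.21, 1.94, and 2.29% in *Ebf2*+/+ and at 1.91, 2.21, and 2.51% in *Ebf2* E165X/+ mice. On this scale the genotypes overlapped, and the third *Ebf2* E165X/+ mouse was the highest rather than the lowest of the 6 (two-sided exact permutation test, *P* = 1). The divisor holds genes that are also on the list of C/EBP and PPARγ targets. The ratio therefore cannot tell a change in *Cebpa* itself from a change in adipocyte content. The 7 endothelial markers, of which *Pecam1* had the highest mean over the 6 mice, summed to 1272, 1251, and 1203 CPM against 1145, 1176, and 925 CPM without overlap (*P* = 0.1, exact permutation test), with *Cldn5* at a log2 fold change of −0.29 (SE 0.13) and *Emcn* at −0.22 (SE 0.10). The part of either cell type in the level of *Cebpa* was not tested.

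The library of the third *Ebf2* E165X/+ mouse stood apart by its skeletal muscle RNA. The 8 muscle fibre markers took 3.62% of its counts and 0.0689 to 0.660% of those of the other 5 libraries, and their summed level was 38143 CPM against 648 to 6688 CPM, with *Acta1* at 11529 and *Myh4* at 11439 CPM the most abundant there. The markers *Acta1* and *Mylpf* had log2 fold changes of 2.13 (SE 1.3) and 2.04 (SE 1.3), with 0 of 8 at an unadjusted *P* under 0.05. This library was the highest of the 6 for *Cebpd*, *Klf4*, *Klf5*, and *Klf9* and the lowest for *Cebpa*, *Gata2*, and *Gata3*. Without it, 0 of 9 factors were called, and the log2 fold change of *Cebpa* was −0.14. *Cebpa* was still separate by genotype, which removing its lowest mouse could not change at a given scaling. *Cebpb* became separate at a log2 fold change of −0.44 (SE 0.19, unadjusted *P* = 0.0474, adjusted *P* = 0.861 by edgeR), and 26.8% of the genes with 10 or more counts in each of the 5 libraries were separate. The part of the muscle RNA in the levels of the factors was not tested.

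Progenitor and fibroblast markers, led by *Dcn*, summed to 2073, 1633, and 2026 CPM in *Ebf2*+/+ and to 2006, 2192, and 2229 CPM in *Ebf2* E165X/+ mice (exact permutation test, *P* = 0.3), where *Dcn* and *Dpp4* had log2 fold changes of 0.25 (SE 0.14) and 0.17 (SE 0.099). *Klf4* was lowest in the mouse with the lowest sum, the second *Ebf2*+/+ mouse, and highest in the mouse with the highest, the third *Ebf2* E165X/+ mouse. The 8 markers of T cells and group 2 innate lymphoid cells, which depend on GATA3, summed to 276, 351, and 366 CPM against 384, 417, and 372 CPM (*P* = 0.1, exact permutation test), with *Lck* the most abundant by its mean over the 6 mice and *Il7r* (log2 fold change 0.31, SE 0.12) and *Cd4* (0.24, SE 0.11) the 2 genes with the smallest *P*. For *Gata3*, 2 of the 3 *Ebf2* E165X/+ mice were below all *Ebf2*+/+ mice, while for these markers all 3 were above them.

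In the following lists the gene said to lead had the highest mean over the 6 mice, though *Krt10* and *Mrc1* did not lead in each of them. Of the epithelial markers, led by *Krt10*, the sum ran from 6.69 to 142 CPM and was highest in the first *Ebf2*+/+ mouse (*P* = 0.3, exact permutation test), with *Krt10* at a log2 fold change of −1.99 (SE 1.1) and *Cdh1* at −0.67 (SE 0.46). Of these 7 markers, 2 had a higher and 5 a lower mean estimate. When 1 mouse was left out at a time, *Krt10* was at −3.42 to −0.60 and *Cdh1* at −1.12 to −0.39. The difference of the epithelial sums was then −78.8 to −11.3 CPM. Macrophage markers, led by *Mrc1*, summed to 694 to 1066 CPM in *Ebf2*+/+ and to 932 to 999 CPM in *Ebf2* E165X/+ mice (*P* = 0.6, exact permutation test), with *C1qb* at 0.18 (SE 0.16) and *C1qa* at 0.16 (SE 0.15). Neutrophil markers, led by *S100a9*, summed to 42.4 to 62.0 CPM against 53.0 to 85.8 CPM (*P* = 0.2, exact permutation test), with *Camp* at 0.73 (SE 0.25) and *Ngp* at 0.55 (SE 0.21), both with an adjusted *P* of 0.783 by edgeR. Without 1 mouse, *Camp* was at 0.47 to 0.87 and *Ngp* at 0.26 to 0.68. Smooth muscle and pericyte markers, led by *Rgs5*, summed to 947 to 965 CPM against 823 to 1031 CPM (*P* = 0.8, exact permutation test), with *Cspg4* at −0.37 (SE 0.17) and *Rgs5* at −0.22 (SE 0.097). These 2 genes do not stand for their list, where 4 of 7 markers had a higher and 3 a lower mean estimate (median log2 fold change 0.095). None of these 4 sums separated the genotypes.

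Brown and beige adipocyte markers summed to 151, 205, and 211 CPM in *Ebf2*+/+ and to 38.1, 45.3, and 70.6 CPM in *Ebf2* E165X/+ mice (*P* = 0.1, exact permutation test). The most abundant was *Cidea* in every *Ebf2*+/+ mouse and *Cox8b*, a gene of the respiratory chain, in every *Ebf2* E165X/+ mouse. Of the 7 markers, 7 had a lower mean estimate, 5 of them with an unadjusted *P* under 0.05, against 3.09% of all genes in that direction. *Cidea*, a lipid droplet gene, was the only gene of all the lists called in edgeR, with a log2 fold change of −3.24 (SE 0.20, adjusted *P* = 0.00462), and *Ucp1*, which encodes the uncoupling protein of thermogenic fat, had one of −5.83 (SE 0.55, adjusted *P* = 0.0596 by edgeR and 4.87e-18 by DESeq2). C/EBPβ is known to serve this program together with PRDM16, and the log2 fold change of *Cebpb*, −0.32, was smaller in size than those of both markers, with an interval ending at −0.75.

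For each factor, the genes with the most similar profile were found by Pearson's correlation of log2 CPM over the 6 libraries among 14966 genes with a mean of at least 1 CPM. The 6 points share tissue makeup and library scaling and many genes were searched, so the values are given as a description. *Ift172* and *Amy1* were closest to *Cebpa* (r = 0.997 and 0.996), *Zfp703* was close to *Cebpb* (0.962), and *Ticam1* and *Mpo* were closest to *Cebpd* (0.997 and 0.993). Among the KLF members, *Fbn2* and *Lpar1* were closest to *Klf4* (0.9899 and 0.9882), *Mapk14* and *Ube2a* to *Klf5* (0.989 and 0.984), *Trim23* and *Col20a1* to *Klf9* (0.989 and 0.988), and *Cdca2* and *Arhgap11a* to *Klf15* (0.996 and 0.993). *Camsap2* and *Chst15* were closest to *Gata2* (0.997 and 0.986), and *Phyhd1* and *Tgm3* to *Gata3* (0.992 and 0.989). No factor was among the 2 nearest genes of another factor, and *Cebpb* had the least similar neighbours of the 9.

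Since EBF2 binds DNA and the factors form a network that acts on its own promoters, the promoters were searched for motif letters. RefSeq sequences of GRCm38.p6, from 250 bases before to 50 bases after a start, covered 7 of the 9 factors with 8 windows, 2 of them for *Gata2*. The searches, on both strands, were for an EBF motif, CCCNNGGG, a KLF motif, CCACCC, a C/EBP motif, TTGCNNAA, a GATA motif, AGATAA, and the palindromic glucocorticoid receptor motif. They were found in 13.7%, 31.5%, 10.8%, 11.2%, and 0.00913% of all 32851 windows of that length. The 8 windows held 63.3 to 80.7% G and C bases, and the shares of all windows were not matched for that. The EBF letters were in 3 of the 8 windows, 1 of *Cebpb* and both of *Gata2*, and the KLF letters in 3 of the 8, those of *Cebpa*, *Cebpb*, and *Gata3*. The C/EBP, GATA, and glucocorticoid receptor letters were in none of the 8, and those of *Klf4*, *Klf9*, and *Klf15* held none of the 5 motifs. The matches that lie upstream of a start are shown for *Cebpa*, the most abundant of the factors, and for the factors with EBF letters, on the strand of the gene and with the matched bases in capitals.
Cebpa, KLF letters, chr7:35119043-35119066, plus strand: cgccgccgGGGTGGggctgagcgc
Cebpb, EBF letters, chr2:167688697-167688724, plus strand: cctccgtgttCCCGAGGGgcgggaaggg
Cebpb, KLF letters, chr2:167688867-167688892, plus strand: cgcaccgaccGGGTGGcggggcggcg
Gata2, EBF letters, chr6:88198447-88198474, plus strand: cggcgaaggtCCCCTGGGgggggggggc

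In the *Cebpa* sequence, GGGTGG is the KLF motif read on the other strand, and it begins at −242, counted from the start. The EBF letters begin at −208 of *Cebpb* and at −207 of the downstream start of *Gata2*, where a second match, CCCTGGGG, overlaps the one shown. A further EBF match of *Gata2*, CCCGCGGG, begins 16 bases into the transcript of the upstream start and is not displayed with its surroundings. A match of such short letters is a description and not a binding site, and no binding was measured in these libraries. Of the factors with EBF letters, *Cebpb* and *Gata2* had log2 fold changes of −0.32 and −0.03, neither past the threshold.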

How the data were processed

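The authors deposited expected counts per gene, estimated numbers of fragments that were not scaled for library size, in 1 table with 1 column per mouse. The submitters' processing notes name cutadapt 4.8, STAR 2.7.8a, RSEM 1.3.3, and GRCm38. The labels and the study's methods disagree on the library kit (whole-transcript or 3′ end) and the latter name ENSEMBL annotation. All 332946 values were whole, so rounding changed none.

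Genotypes were compared by edgeR 4.0.16 (R 4.3.3). Genes without a count were dropped, TMM factors were applied, and the quasi-likelihood model held genotype and no other term. Benjamini-Hochberg adjustment was over the 32664 genes left. Standard errors are derived from the fold change and the F statistic. The prior count for log2 CPM was 2. DESeq2 1.42.0 and limma-voom (limma 3.58.1) were alternatives. Each library is a separate mouse. Intervals and SDs hold both counting error and the spread between mice; the libraries held 106820505 or more counts each, and the share of counting error was not separated.

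The factors and gene lists were chosen with earlier results of these data known. Besides the 9 factors and *Ebf2*, the genes named are, per list, those past the adjusted threshold or else the 2 of smallest unadjusted *P* with a mean of at least 1 CPM, the most abundant marker, and the 2 genes nearest to each factor (1 of those of *Cebpb* is not reported here). *Klf1*, *Dgat2*, *Alas1*, *Bckdhb*, *Bcat2*, *Tat*, *Slc2a4*, *Pck1*, *Pdk4*, *Slc4a1*, *Nr4a1*, *Errfi1*, *Jun*, *Cox8b*, *Ucp1*, *Insr*, *Cfd*, *Cidec*, *Nr1d1*, and *Nr1d2* were added after their values were seen. Coordinates, exon lengths, and overlaps are from GENCODE M21 (GRCm38). The edgeR step was tested on simulated counts with 200 changed genes. Protein sequences were not used here.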

Additional observations from a re-analysis of the deposited data

How the results depend on the processing

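The number of factors called was 0 under all 15 alternatives: DESeq2 with and without independent filtering, limma-voom, DESeq2's size factors, library size alone, filterByExpr, 10 or more counts in each library, no mitochondrially encoded genes, the replicate block, and each of the 6 mice left out. The number with an unadjusted *P* under 0.05 was 1 with DESeq2 under either filtering and with limma-voom (*Cebpa*), 1 with the library size alone (*Klf4*), and 0 to 1 without 1 mouse. With the replicate number as a block it was 1 (*Cebpb*). The block called 2 genes of all tested against 3 without it. Deviations of same-numbered mice correlated at 0.153, −0.278, and −0.162, and those of differently numbered mice at −0.317 to 0.395. With 3 mice per genotype, these values cannot decide whether the numbers pair the mice. The number of factors separate by genotype was 1 to 2 without 1 mouse. *Cebpa* was separate each time, which shows no stability: groups without overlap cannot come to overlap by losing a mouse, unless the scaling changes. It was joined by *Klf4* without the first *Ebf2*+/+ or the second *Ebf2* E165X/+ mouse, *Cebpd* without the third *Ebf2*+/+, *Gata3* without the first *Ebf2* E165X/+, and *Cebpb* without the third *Ebf2* E165X/+ mouse. In such sets of 5 libraries, 20.5 to 27.0% of the well-counted genes were separate. With the library size alone it was 1, *Klf4* in place of *Cebpa*.

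Signs turned for factors with estimates near 0. *Klf5* was −0.024 with limma-voom, −0.030 with the replicate block, −0.050 without the second *Ebf2*+/+ mouse, and −0.49 without the third *Ebf2* E165X/+ mouse. *Klf9* was −0.089 without the latter mouse, and *Klf15* was −0.029 without the third *Ebf2*+/+ and −0.051 without the first *Ebf2* E165X/+ mouse. *Gata2* was 0.025 with the library size alone, 0.026 without the second *Ebf2*+/+ mouse, and 0.035 once the third *Ebf2* E165X/+ mouse was omitted. The ranges without 1 mouse were −0.31 to −0.14 for *Cebpa*, −0.44 to −0.15 for *Cebpb*, 0.0071 to 0.50 for *Cebpd*, 0.09 to 0.26 for *Klf4*, −0.49 to 0.41 for *Klf5*, −0.089 to 0.28 for *Klf9*, −0.051 to 0.13 for *Klf15*, −0.099 to 0.035 for *Gata2*, and −0.32 to −0.03 for *Gata3*. *Ebf2* was −0.82 with DESeq2 (adjusted *P* = 1.23e-13), −0.86 to −0.77 without 1 mouse, and past the adjusted threshold (0.0423 by edgeR) when the third *Ebf2* E165X/+ mouse was left out.

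The library size alone moved the median log2 fold change of the well-counted genes from 0.03 to 0.08, and the genes with an unadjusted *P* under 0.05 from 548 higher and 1009 lower to 783 and 642. Leaving out a mouse moved these edgeR counts as well. They were 961 higher and 797 lower without the second *Ebf2* E165X/+ mouse, and 329 and 722 without the first *Ebf2*+/+ mouse. The shares of all genes given beside the lists rest on the counts from all 6 mice. Over the alternatives the median of the 9 factors ran from −0.051 to 0.13, and that of the other KLF genes from 0.07 to 0.19. The medians of the factors that restrain adipogenesis and of the clock genes turned to 0.02 with the library size alone. Without 1 mouse, medians ran from −0.17 to −0.068 for the promoting factors (nearest to 0 without the third *Ebf2* E165X/+ mouse), −0.13 to −0.0086 for the restraining factors (lowest without the second and highest without the first *Ebf2*+/+ mouse), −0.062 to 0.21 for the clock genes (highest without the third *Ebf2*+/+ mouse), −0.12 to 0.12 for the glucocorticoid-induced and −0.13 to 0.17 for the immediate early genes (both lowest without the third *Ebf2* E165X/+ mouse), −0.38 to −0.15 for the C/EBP and PPARγ targets, and −0.39 to −0.086 for the adipocyte markers, whose summed difference was −4953 to −1136 CPM (all nearest to 0 without the third *Ebf2* E165X/+ mouse). Of the other genes given with a fold change, *Acta1*, *Mylpf*, *C1qa*, *C1qb*, *Cebpg*, *Pck1*, *Insr*, *Cfd*, and *Cidec* also turned sign without 1 mouse. Leaving out mice for the summed markers was chosen after the data were seen. Differences of the sums in CPM turned to −3.28 for erythroid markers without the first *Ebf2* E165X/+ mouse, −1905 for muscle without the third, −20.7 for macrophages without the second *Ebf2*+/+ mouse, and 34.9 for smooth muscle without the first *Ebf2* E165X/+ mouse, where the library size alone gave 9.55; over the 6 omissions they were −3.28 to 35.0, −1905 to 16842, −20.7 to 165.4, and −69.2 to 34.9. The causes were not tested. Calls over all genes numbered 3 in edgeR, 98 in DESeq2, 4 in limma-voom, 6 with the library size alone, and 1 to 11 without 1 mouse.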
